A study of Mus musculus with 6 samples.

Results

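The proteasome subunit genes were followed in haematopoietic stem and progenitor cells of mice with 2 or 1 intact copies of Dnmt3a. Members were taken by name alone: every gene on the array whose probe sets carried exactly 1 symbol made of Psma, Psmb, Psmc or Psmd and a number, leaving out the interferon-induced Psmb8, Psmb9 and Psmb10. This gave 36 of the 22103 named genes and 515 of the 1256831 probe sets. Of these genes, 16 belong to the core particle and 20 to the regulatory particle. For each gene the log2 intensities of its probe sets were averaged, using those with a mean above log2 5.89, the median of the table. That filter kept 475 probe sets and 35 genes. The thymus form Psmb11 had 2 probe sets, both dim, and was not measured. A further 19 probe sets name Psma5 together with a second gene and were left out.

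The RNA came from KLS cells, the bone marrow fraction with Kit and Sca-1 on the surface and without mature lineage markers, and 1 array was run per sample. There were 3 wild-type and 3 Dnmt3a+/- samples, the latter heterozygous for a loss of Dnmt3a, which encodes a DNA methyltransferase. The labels name no treatment, strain, sex or age, and do not tie samples to animals. The p-values here thus cover only how far these samples differ from one another, part of which may be technical. In bulk RNA, fewer cells of a type and less RNA per cell cannot be told apart. Dnmt3a read 8.51, 8.70 and 8.50 (log2) on the wild-type arrays and 8.38, 8.20 and 8.20 on the Dnmt3a+/- arrays, with no overlap. The difference (Dnmt3a+/- minus wild-type, log2) of -0.31 (SE 0.12) did not pass a test adjusted over all genes (limma, adjusted p = 0.631). The antigens of the sort were present on every array: Ly6a, which encodes Sca-1, overlapped at 8.30 to 8.66, while Kit was at 10.68 to 10.80 in wild-type and, without overlap, at 10.59 to 10.65 in Dnmt3a+/- samples. The summed level (log2) of 7 KLS markers was likewise lower without overlap. It was 12.66 to 12.79 in wild-type and 12.49 to 12.62 in Dnmt3a+/- samples. That of 5 T and NK cell markers was higher without overlap, at 8.91 to 9.10 and 9.18 to 9.27. Of the 7 KLS markers 5 were lower and 2 higher, and of the 5 T and NK markers 4 were higher and 1 lower. In each set 1 gene did not overlap. Of the brightest 25% of all genes 17.9% were lower without overlap. Of the dimmest 25%, with levels up to 6.89, 505 of 5015 genes were higher without overlap. Cd3e, the T and NK gene without overlap, was brighter, at a level of 7.58. Among genes with levels from 7.36 to 8.02, 248 of 5014 were higher without overlap. Whether the sums stood out from this background was not tested. The sums for 8 neutrophil markers overlapped, at 13.18 to 13.75 and 13.55 to 14.02, as did those for B lineage, monocyte, erythroid and megakaryocyte markers. Gene by gene, 7 of the 8 neutrophil markers were higher in Dnmt3a+/- samples, with a median difference of 0.36. Retnlg (0.98) and Mmp8 (0.64) were higher without overlap, while Mpo, the brightest of the 8, was lower (-0.17). Higher without overlap were 6.74% of all genes and 1.95% of the brightest 25%, where Retnlg lies, while Mmp8 lies in the dimmest 25%. Of the 4 monocyte markers, Csf1r (-0.73) was lower and Adgre1 (0.42) higher without overlap, and the others overlapped. The part of these marker shifts in the results that follow was not tested. The array of Dnmt3a+/- replicate 2 was the least like the others: its correlation with them across genes averaged 0.904, against 0.938 to 0.949 for the rest. Medians of the member groups and most members described in detail are therefore given with and without it.

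The proteasome is the barrel-shaped protease that degrades proteins tagged with ubiquitin. Its core particle stacks outer alpha rings, which form the gate, on inner beta rings, which hold the proteolytic sites. The regulatory particle caps the barrel: a ring of ATPases unfolds the substrate and threads it inwards, while the lid and base subunits bind the ubiquitin chain and cut it off. The subunits assemble in fixed proportions, and their genes are known to be controlled together. Haematopoietic stem cells are known to depend on tight control of protein synthesis and turnover.

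No proteasome gene passed the test for a genotype difference after adjustment over the 20059 genes measured (limma with Benjamini-Hochberg adjustment, 0 of 35 at adjusted p 0.05, smallest adjusted p = 0.631). At an unadjusted p under 0.05 there was 1 member lower in Dnmt3a+/- samples, Psmc6, and 1 higher, Psma8. Over all genes the adjusted test called 0%, and the unadjusted one 4.57% as lower and 2.92% as higher, 7.49% in all. Of the 35 genes, 29 had a lower mean in Dnmt3a+/- samples, where 54.3% of all genes did, but with cyclic loess, a scaling that removes level-dependent differences between arrays, 19 did. The median difference (Dnmt3a+/- minus wild-type, log2) was -0.14 over the members and -0.02 over all genes, and -0.0035 and 0.0035 with cyclic loess. The members are bright on the array, and among the brightest 25% of all genes the median difference was -0.13 with 78.7% of genes lower. The members therefore stood close to other genes of their level. Subtracting the median of all genes of like level (10 classes) left medians of -0.0017 for the core and -0.011 for the regulatory particle. Without Dnmt3a+/- replicate 2, 12 of 35 members were lower and the median was 0.05, while 65.6% of the brightest genes were lower with a median of -0.06, so the members and the bright genes then lay on opposite sides of 0. Without both that array and wild-type replicate 1, 25 members were lower with a median of -0.07, beside 70.8% and -0.08 for the brightest genes.

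**Figure D1:**
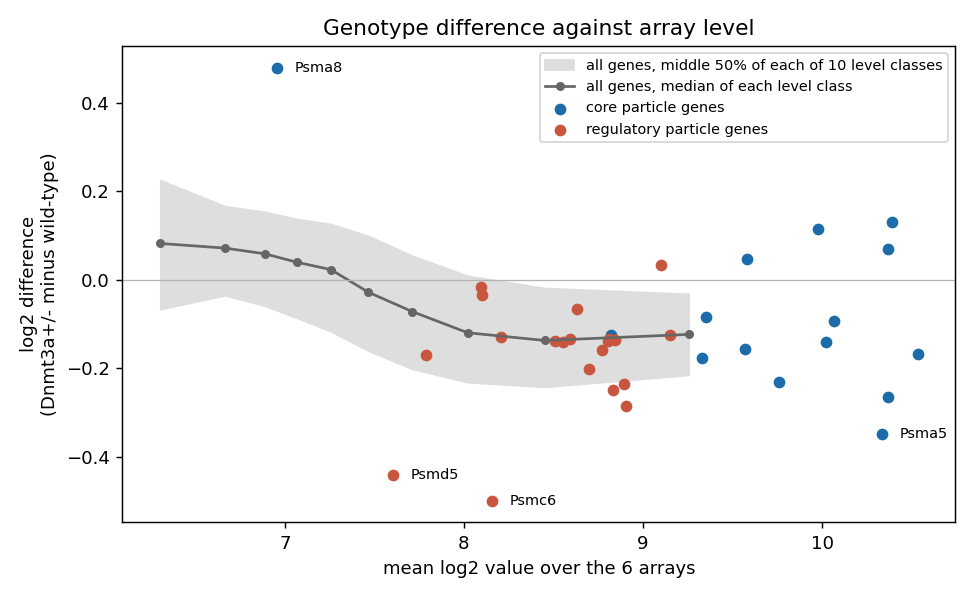
Genotype difference (log2, Dnmt3a+/- minus wild-type) of each of the 35 proteasome genes against its mean log2 value over the 6 arrays, with the median and the middle 50% of all genes in each of 10 level classes in grey. The grey line falls from 0.08 to -0.12 with level, and most members scatter around its right end. Psma8 at 0.48 lies above it, and Psmc6 at -0.50, Psmd5 at -0.44 and Psma5 at -0.35 lie below it.

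The alpha ring genes Psma1 to Psma7 encode the gate of the barrel. All 7 had a lower mean in Dnmt3a+/- samples, from -0.35 for Psma5 to -0.09 for Psma7, with a median of -0.16, while with cyclic loess 5 did and the median was -0.03. In each of the 7 the lowest of the 6 arrays was Dnmt3a+/- replicate 2. Psma5 read 10.56, 10.47 and 10.50 on the wild-type arrays and 10.34, 9.70 and 10.44 on the Dnmt3a+/- arrays. Every Dnmt3a+/- array lay below every wild-type array, although replicate 3 did so by a narrow margin. The difference of -0.35 (SE 0.19, limma adjusted p = 0.646, exact two-sided permutation p = 0.1, the smallest that 3 against 3 arrays allow) became -0.12 without replicate 2. Psma6 followed, at 10.44, 10.48 and 10.58 on the wild-type arrays and 10.42, 9.78 and 10.50 on the Dnmt3a+/- arrays. Its genotypes overlapped, and its difference of -0.27 (SE 0.19) was -0.04 without replicate 2. Psma1 (-0.12), Psma2 (-0.18), Psma3 (-0.14) and Psma4 (-0.16) lay between these ends. With that array left out, 3 of the 7 alpha genes were lower and the median was 0.03.

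Psma8, the form that replaces Psma7 in the testis, was the exception. It read 6.57, 6.97 and 6.60 on the wild-type arrays and 7.44, 7.16 and 6.98 on the Dnmt3a+/- arrays, so the genotypes did not overlap, by a narrow margin between wild-type replicate 2 and Dnmt3a+/- replicate 3. Its difference of 0.48 (SE 0.16, 95% confidence interval 0.10 to 0.86) is a fold of 1.39 and had an adjusted p of 0.631 (limma). All 8 of its kept probe sets had a positive difference, from 0.09 to 0.75, though none of them separated the genotypes alone. Left out 1 at a time, the arrays gave differences from 0.36 to 0.61. The gene is dim here, and the median difference of all genes in its level class was 0.06.

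The beta ring genes Psmb1 to Psmb7 line the inner chamber. Here 3 of 7 had a lower mean in Dnmt3a+/- samples (2 with cyclic loess, which turned Psmb7), and the median difference was 0.05. Without Dnmt3a+/- replicate 2, 1 of the 7 was lower and the median was 0.12. Psmb6, which carries the caspase-like activity, had the largest positive difference in the ring. It read 10.27, 10.42 and 10.28 on the wild-type arrays and 10.52, 10.16 and 10.69 on the Dnmt3a+/- arrays, a difference of 0.13 (SE 0.15, limma adjusted p = 0.77). The highest and the lowest array were both Dnmt3a+/-, and the difference was 0.28 without replicate 2 and 0.013 without replicate 3. Psmb5, the chymotrypsin-like subunit that proteasome inhibitor drugs bind, read 9.78, 9.99 and 9.86 on the wild-type arrays and 9.88, 9.40 and 9.65 on the Dnmt3a+/- arrays. Its difference of -0.23 (SE 0.15, adjusted p = 0.663) was the most negative of the ring, and the genotypes overlapped. It was -0.11 without Dnmt3a+/- replicate 2 and -0.10 with the median of probe sets. Psmb7, with the trypsin-like activity, read 9.02, 9.66 and 9.50 on the wild-type arrays and 9.51, 8.90 and 9.52 on the Dnmt3a+/- arrays, a difference of -0.08 (SE 0.22) that was 0.12 without Dnmt3a+/- replicate 2. Each genotype held 1 low array, so the 3 catalytic genes gave no common direction. Psmb3, a structural beta subunit, varied least of the 35 members among the Dnmt3a+/- arrays (SD 0.04): it read 9.77, 10.05 and 9.94 on the wild-type arrays and 10.08, 10.01 and 10.02 on the Dnmt3a+/- arrays. Its difference of 0.11 (SE 0.11) was 0.13 without Dnmt3a+/- replicate 2 and 0.04 without wild-type replicate 1. Psmb1 (0.05), Psmb2 (0.07) and Psmb4 (-0.17) completed the ring.

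The 6 ATPase genes Psmc1 to Psmc6 encode the motor that pulls substrates into the core. All 6 had a lower mean in Dnmt3a+/- samples, with a median difference of -0.13, but 2 of 6 did so with cyclic loess, where the median was 0.0032. Psmc6 read 8.18, 8.48 and 8.55 on the wild-type arrays and 8.13, 7.46 and 8.13 on the Dnmt3a+/- arrays. These values did not overlap, with wild-type replicate 1 just above the Dnmt3a+/- arrays. The difference of -0.50 (SE 0.20, 95% confidence interval -0.97 to -0.03) is a fold of 0.708, had an adjusted p of 0.631 (limma), and was -0.27 without Dnmt3a+/- replicate 2. Psmc6 thus had the most negative difference of all 35 members. The other 5 ATPase genes ran from -0.14 for Psmc4 and Psmc1 through -0.13 for Psmc3 and -0.12 for Psmc5 to -0.07 for Psmc2, and all overlapped. Psmc4 read 8.22, 9.12 and 8.52 on the wild-type arrays and 8.67, 8.16 and 8.61 on the Dnmt3a+/- arrays, with an SD of 0.46 in wild-type alone, and its difference was 0.02 without Dnmt3a+/- replicate 2. Without Dnmt3a+/- replicate 2 the median of the 6 was 0.05, and 2 were lower.

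Promoter sequences of RefSeq (GRCm38.p6) were found for 29 of the 36 members, in 31 windows of the 250 bases before a start. The transcription factors Nfe2l1, which raises proteasome genes when proteasome activity falls, and Nfe2l2 act through antioxidant response elements, searched here as TGACNNNGC on both strands, and NF-Y through the CCAAT box, searched on both strands as well. The first was present in 5 of 31 member windows (16.1%) and in 10.2% of all 32851 windows. CCAAT was present in 12 (38.7%) and in 33.8% of all, with 7 of 13 core and 5 of 18 regulatory windows. No member window held both, where 3.24% of all windows did. The match to the response element occurred in Psmb5, Psmb6, Psmc6, Psmd9 and Psmd12, whose differences ran from -0.50 to 0.13. The windows of Psmb6 and Psmc6 are shown because these genes, with the highest difference of the beta ring and the lowest of all members, both hold the match. Other genes at the ends held neither motif: Psma5, with the lowest core difference, and Psmd8, with the highest regulatory difference. The windows shown thus do not tie the match to large differences. Capitals mark it, read 5′ to 3′ along the gene, in Psmb6 (chr11:70525107-70525356, plus strand) on the same strand and in Psmc6 (chr14:45329574-45329823, plus strand) on the opposite strand.
Psmb6: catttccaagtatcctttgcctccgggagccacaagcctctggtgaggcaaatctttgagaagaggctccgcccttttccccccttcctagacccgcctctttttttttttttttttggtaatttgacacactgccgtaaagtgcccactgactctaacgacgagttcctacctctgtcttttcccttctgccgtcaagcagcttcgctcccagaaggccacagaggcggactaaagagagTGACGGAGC
Psmc6: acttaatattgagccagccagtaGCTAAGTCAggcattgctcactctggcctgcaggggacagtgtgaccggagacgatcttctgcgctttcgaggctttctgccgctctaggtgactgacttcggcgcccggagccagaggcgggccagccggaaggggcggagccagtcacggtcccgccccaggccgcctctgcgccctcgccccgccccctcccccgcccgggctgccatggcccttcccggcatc
The match begins 9 bases before the start in Psmb6 and 227 bases before it in Psmc6. A match of these letters is a description and not a shown site.

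In the base, Psmd1 and Psmd2 are the large scaffold subunits and Psmd4 is a ubiquitin receptor. Psmd4 read 8.89, 8.84 and 8.82 on the wild-type arrays and 8.85, 8.30 and 8.93 on the Dnmt3a+/- arrays. Only Dnmt3a+/- replicate 2 was low. The difference of -0.16 (SE 0.17, limma adjusted p = 0.755) was 0.04 without it. Psmd1 (-0.20, SE 0.28) and Psmd2 (-0.14, SE 0.25) had the same sign, and stood at 0.09 and 0.10 without that array.

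The lid holds Psmd14, the metalloprotease that removes the ubiquitin chain, within a frame of scaffold subunits. Of its 8 genes 7 had a lower mean in Dnmt3a+/- samples, with a median of -0.14, against 4 and a median of 0.0013 with cyclic loess. Without Dnmt3a+/- replicate 2, 4 were lower and the median was 0.0025. Psmd14 read 8.34, 9.01 and 8.62 on the wild-type arrays and 8.55, 8.46 and 8.56 on the Dnmt3a+/- arrays. All Dnmt3a+/- arrays lay inside the wild-type range, and the difference was -0.13 (SE 0.17, limma adjusted p = 0.79), or -0.10 without Dnmt3a+/- replicate 2 and 0.04 without wild-type replicate 2. Psmd11, a subunit whose level is known to limit proteasome assembly in pluripotent cells, was the 1 lid gene whose genotypes did not overlap. It read 8.99, 8.93 and 9.11 on the wild-type arrays and 8.88, 8.62 and 8.82 on the Dnmt3a+/- arrays, a difference of -0.24 (SE 0.12, adjusted p = 0.631, exact permutation p = 0.1). Without Dnmt3a+/- replicate 2 it stood at -0.16, and with cyclic loess at -0.10. Psmd6 had the most negative difference of the lid, -0.28 (SE 0.20), from 8.89, 9.20 and 9.06 to 8.93, 8.30 and 9.06, with overlap. Without Dnmt3a+/- replicate 2 it was -0.05, and Psmd11 was then the more negative. Psmd8 stood at the other end: it read 9.135, 9.005 and 9.107 on the wild-type arrays and 9.036, 9.077 and 9.234 on the Dnmt3a+/- arrays, a difference of 0.03 (SE 0.11), or 0.05 without Dnmt3a+/- replicate 2. It was the 1 regulatory gene with a higher mean in Dnmt3a+/- samples, where cyclic loess gave 8. Psmd7 (-0.25, and -0.05 without Dnmt3a+/- replicate 2), Psmd12 (-0.14), Psmd3 (-0.03) and Psmd13 (-0.02) lay between these and overlapped.

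Psmd5, Psmd9 and Psmd10 are chaperones that hold the ATPases during assembly and leave the finished particle. Psmd5 read 7.59, 8.15 and 7.73 on the wild-type arrays and 7.65, 7.08 and 7.42 on the Dnmt3a+/- arrays. The genotypes overlapped at wild-type replicate 1, and the difference of -0.44 (SE 0.19, limma adjusted p = 0.631) was -0.29 without Dnmt3a+/- replicate 2, -0.28 without wild-type replicate 2, and -0.13 with the filter at percentile 75. Psmd9 read 7.85, 7.90 and 7.87 on the wild-type arrays and 7.75, 7.79 and 7.56 on the Dnmt3a+/- arrays, without overlap. Its lowest array was Dnmt3a+/- replicate 3, and its difference of -0.17 (SE 0.11, limma adjusted p = 0.665) was -0.10 without that array, -0.21 without replicate 2, and -0.09 both with cyclic loess and with the median of probe sets. Psmd10, also known as the oncoprotein gankyrin, had the widest spread of the family, from 7.53 to 8.72 in Dnmt3a+/- samples, around a difference of -0.13 (SE 0.31), or 0.18 without replicate 2.

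**Figure D2:**
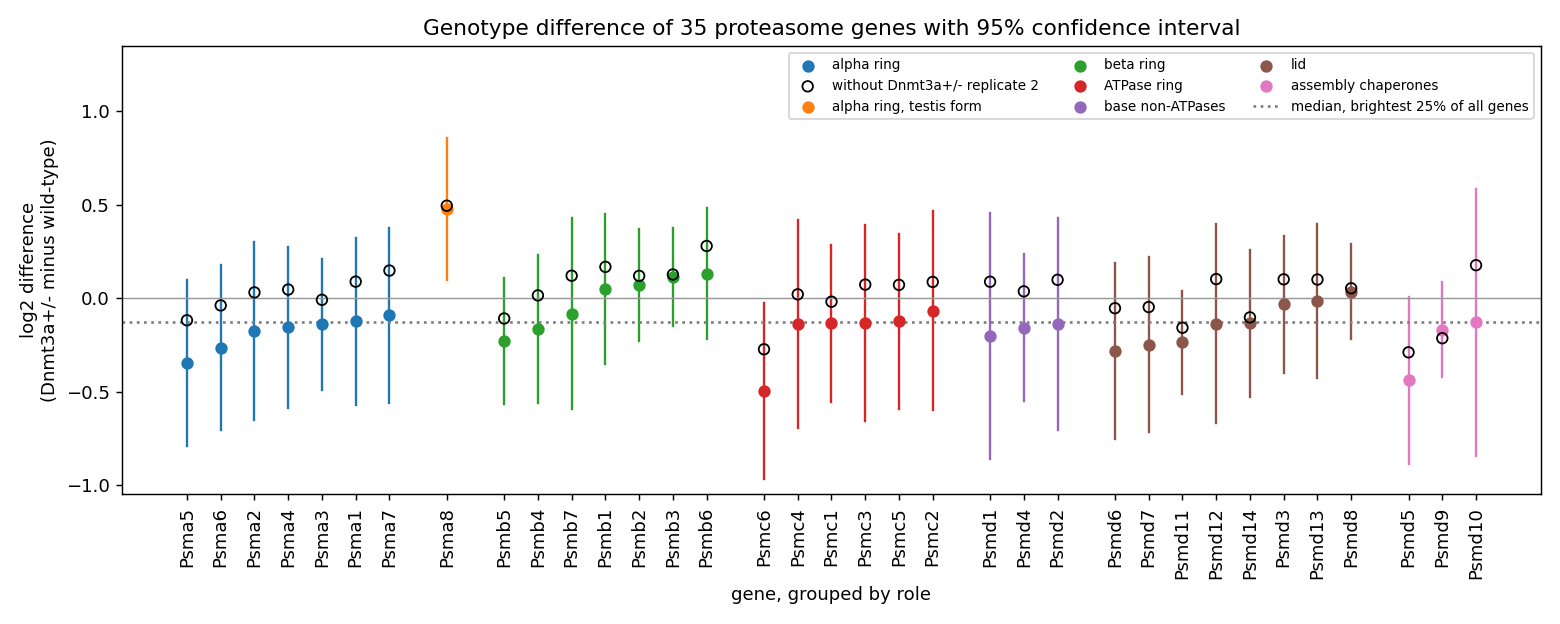
Genotype difference (log2, Dnmt3a+/- minus wild-type) of 35 proteasome genes by role, as filled points with the 95% confidence interval of the fit, and as open circles without Dnmt3a+/- replicate 2. Open circles lie above the filled points in 34 genes and below in Psmd9, and the dotted line marks the median of the brightest 25% of all genes, -0.13.

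In all, the genotypes did not overlap in 4 members on the lower side (Psma5, Psmc6, Psmd9 and Psmd11) and in 1 on the higher side (Psma8). Over all genes, 9.05% did not overlap on the lower and 6.74% on the higher side, and in the brightest 25% of genes 17.9% did so on the lower side. On the higher side 1.95% of the brightest 25% did so, although Psma8 is dimmer than these. Its mean level was 6.95, and 500 of the 5015 genes with levels from 6.89 to 7.36 did not overlap on the higher side. On the lower side the members' count was thus not above the background of bright genes. Genotypes that do not overlap cannot change sign when 1 array is left out, so such fits do not test the sign of these 5 differences.

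Arrays of 1 genotype also differed from one another. Each gene was set against its own wild-type mean, and the median of these deviations was taken per array. The core particle stood at -0.13, 0.08 and 0.08 on the wild-type arrays and at 0.01, -0.49 and 0.16 on the Dnmt3a+/- arrays. The regulatory particle stood at -0.29, 0.24 and 0.04 on the wild-type arrays and at -0.06, -0.53 and 0.03 on the Dnmt3a+/- arrays. In the brightest 25% of all genes the same medians were -0.04, 0.03 and 0.01 on the wild-type arrays and -0.07, -0.27 and -0.04 on the Dnmt3a+/- arrays. Both particles were thus lowest on Dnmt3a+/- replicate 2, and the regulatory particle also differed between wild-type replicates 1 and 2.

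On Dnmt3a+/- replicate 2, all 20 regulatory and 13 of 15 core genes lay below their wild-type mean, and 26 of 35 members had their lowest value there. That array was the lowest of the 6 for 58.6% of the brightest 25% of genes and 32.5% of all genes. On wild-type replicate 1, 18 of 20 regulatory and 14 of 15 core genes lay below that mean. The median SD between wild-type arrays was 0.28 for regulatory genes, 0.14 for core genes and 0.13 for the brightest 25% of genes. Cytoplasmic ribosomal protein genes, another set whose products form a fixed complex, had a median SD of 0.11 over 62 genes. Their array medians were -0.03, 0.03 and -0.01 in wild-type samples. Their mean levels ran from 5.89 to 13.49 (log2), so this set was not matched to the proteasome genes in level. The neutrophil markers moved across the same arrays, with medians of 0.37, -0.59 and 0.18 on the wild-type arrays and 0.79, 0.34 and 0.22 on the Dnmt3a+/- arrays. Their part in the proteasome values was not tested.

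**Figure D3:**
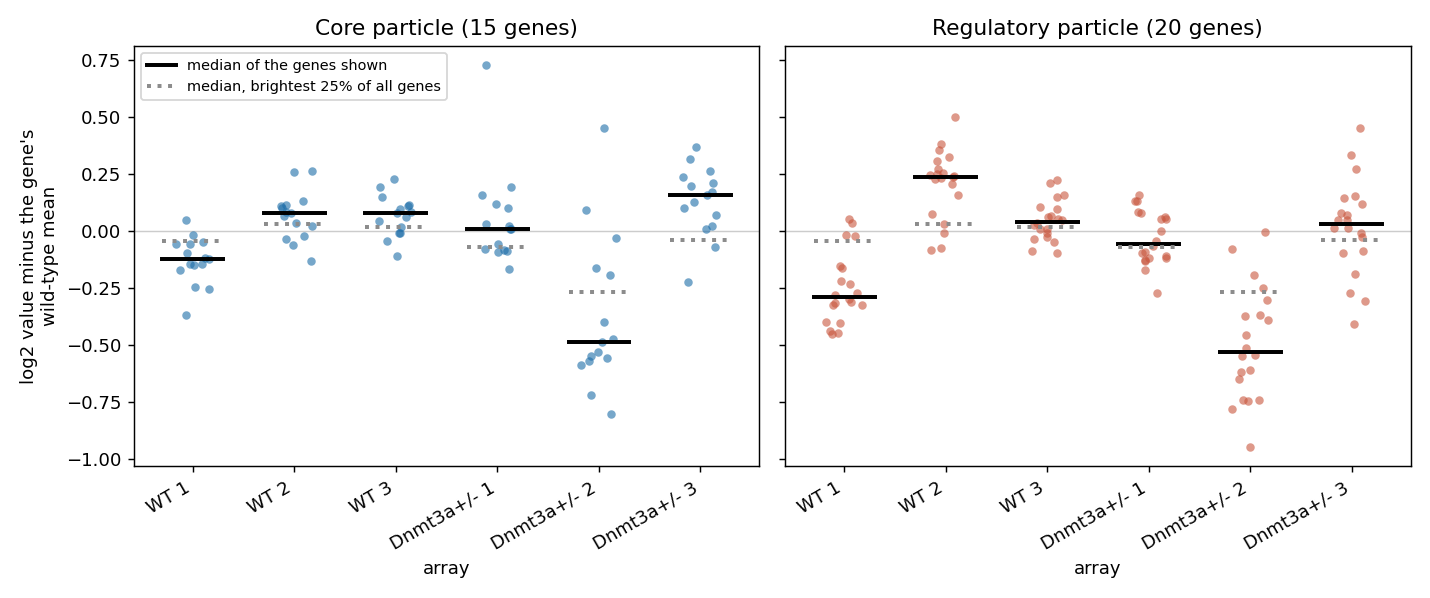
Log2 value of each core gene (left, blue) and regulatory gene (right, red) minus its wild-type mean on each of the 6 arrays; black bars are medians and dotted bars the median of the brightest 25% of all genes. The regulatory medians run from -0.29 to 0.24 within wild-type, and both particles are lowest on Dnmt3a+/- replicate 2.

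The balance of core and regulatory particle differed between the genotypes by less than the spread between wild-type arrays, though by more than that between Dnmt3a+/- arrays. Within an array, the core median minus the regulatory median was 0.17, -0.16 and 0.04 on the wild-type arrays and 0.07, 0.04 and 0.13 on the Dnmt3a+/- arrays. The means were 0.02 ± 0.16 and 0.08 ± 0.04 (SD, n = 3), a difference of 0.06. The genotype difference had a median of -0.12 over the 15 core and -0.14 over the 20 regulatory genes. Without Dnmt3a+/- replicate 2 these were 0.09 and 0.04, and with cyclic loess 0.01 and -0.0036. No p is given for such scores, since the gene set was chosen with earlier results known.

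Single probe sets showed how evenly a gene's difference was spread. None of the 475 passed the adjusted test over the 628415 kept probe sets (limma, smallest adjusted p = 0.799, 0% called). Of the 475, 327 (68.8%) had a lower mean in Dnmt3a+/- samples, where 50.3% of all kept probe sets did. The latter share was not matched for level. Taken by gene, 82.9% of the members were lower, beside 78.7% of the brightest 25% of genes. At unadjusted p under 0.05 there were 6 lower and 3 higher, where 3.41% and 2.8% of all probe sets were called. The genotypes did not overlap on the lower side in 30 of them, 6.32%, against 6.1% of all probe sets, and on the higher side in 15, against 6.31%. In Psmc6, 17 of 18 probe sets were lower, from -1.06 to 0.34, and 3 did not overlap. In Psma5 all 4 kept probe sets were lower, between -0.47 and -0.25, and all 4 overlapped. Both genes thus had differences of 1 sign along nearly all their probe sets. Psmd11 had 17 of 22 lower with 5 not overlapping, whereas Psmd9 had 15 of 21 lower with 4 not overlapping below and 2 above. In Psmb3, 11 of 14 were higher and 4 did not overlap. Psmb1, with 5 lower and 5 higher, had no common sign.

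**Figure D4:**
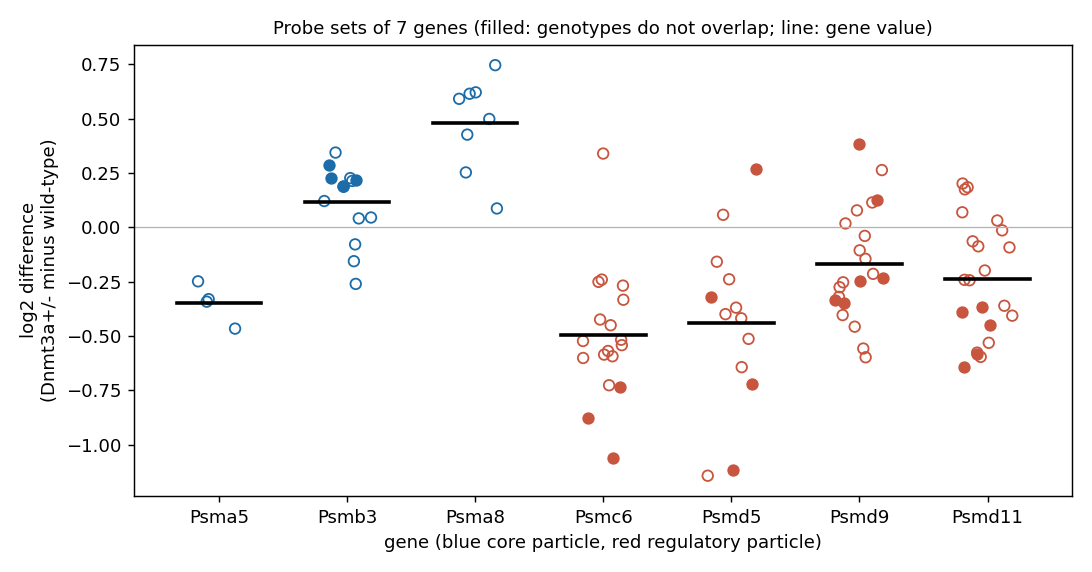
Genotype difference (log2, Dnmt3a+/- minus wild-type) of each kept probe set of 7 genes; filled points are probe sets whose genotypes do not overlap, black lines the gene's difference. All 8 points of Psma8 lie above 0 and all 4 of Psma5 below, while Psmd9 has filled points on both sides.

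The interferon-induced subunits Psmb8, Psmb9 and Psmb10 take the places of Psmb5, Psmb6 and Psmb7 in the immunoproteasome, which favours peptides for MHC class I. Psmb9 read 8.72, 8.98 and 9.13 on the wild-type arrays and 8.54, 8.05 and 8.61 on the Dnmt3a+/- arrays, without overlap. Its difference was -0.54 (SE 0.18), a fold of 0.687, and did not pass (limma adjusted p = 0.631). It was -0.37 without Dnmt3a+/- replicate 2 and -0.30 with the filter at percentile 75. Psmb8 (-0.17, SE 0.15) and Psmb10 (-0.04, SE 0.16) overlapped. Set against the subunit it replaces on the same array, Psmb9 stood further apart. The log2 difference Psmb9 minus Psmb6, relative to its wild-type mean, was -0.17, -0.06 and 0.23 on the wild-type arrays and -0.59, -0.73 and -0.69 on the Dnmt3a+/- arrays. All Dnmt3a+/- arrays lay below all wild-type arrays, and Dnmt3a+/- replicate 2 did not stand apart. The mean difference of -0.67 corresponds to a fold of 0.628 and ran from -0.76 to -0.55 with single arrays left out, and was -0.43 with the filter at percentile 75. For Psmb8 minus Psmb5 the genotypes differed by 0.06 and for Psmb10 minus Psmb7 by 0.05, both with overlap. These 3 pairs were chosen after the values were seen and are given as a description, with no test.

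**Figure D5:**
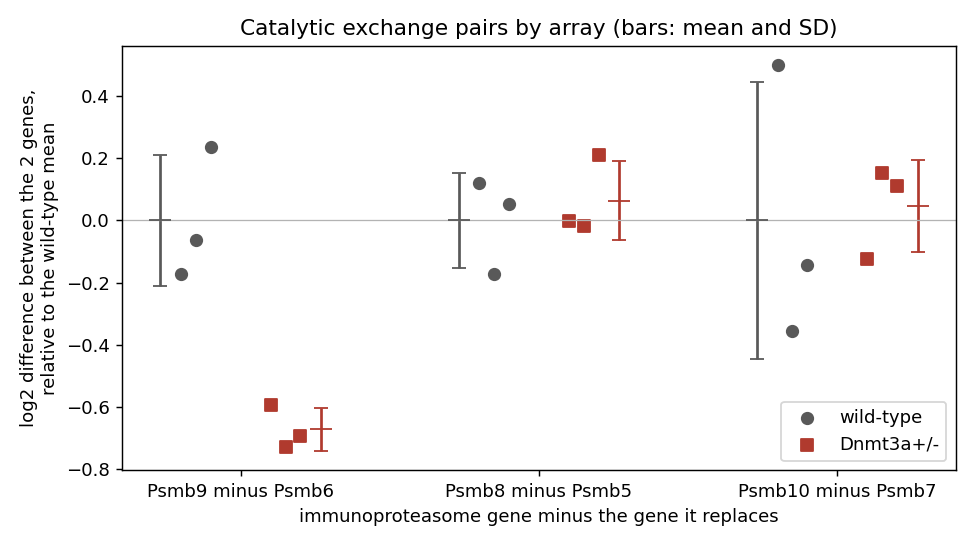
Log2 value of each immunoproteasome gene minus that of the constitutive gene it replaces, relative to the wild-type mean, on the 3 wild-type (grey circles) and 3 Dnmt3a+/- arrays (red squares), with mean and SD. Psmb9 minus Psmb6 is 0.00 ± 0.21 in wild-type and -0.67 ± 0.07 in Dnmt3a+/- samples, and the other 2 pairs overlap.

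Of 44 other genes listed for the ubiquitin and proteasome pathway, 37 were measured. None passed (limma, 0 of 37 at adjusted p 0.05), 31 had a lower mean in Dnmt3a+/- samples (19 with cyclic loess), and the median difference was -0.09. At an unadjusted p under 0.05 there was 1, Psmb9, which was lower, where 4.57% of all genes were called as lower. A lower mean was seen in 54.3% of all genes and 78.7% of the brightest 25%. Among activators, the nuclear Psme4 stood at -0.21 (SE 0.12) and Psme3 at -0.14 (SE 0.22). Among assembly factors, Pomp, the chaperone that matures the core particle, had a positive difference of 0.15 (SE 0.12), and Ecpas, which tethers core and cap, one of -0.23 (SE 0.13) without overlap, or -0.11 without Dnmt3a+/- replicate 2. Of the bound enzymes, Txnl1 stood at -0.23 (SE 0.24) and the ligase Ube3c at -0.18 (SE 0.15), and at 0.00026 and -0.05 without Dnmt3a+/- replicate 2. Vcp, the segregase that extracts ubiquitin-tagged proteins, stood at -0.31 (SE 0.16) without overlap, and the shuttle Ubqln1 at -0.27 (SE 0.20). Without Dnmt3a+/- replicate 2 these were -0.14 and -0.08, and the median of probe sets gave -0.07 for Vcp. With Psmb9, 3 of the 37 genes did not overlap on the lower side, where 9.05% of all genes and 17.9% of the brightest 25% did so. The factor Nfe2l1 read 8.52, 8.54 and 8.38 on the wild-type arrays and 8.44, 8.20 and 8.54 on the Dnmt3a+/- arrays. These overlapped, with a difference of -0.08 (SE 0.13), or 0.012 without Dnmt3a+/- replicate 2. The named members of its list, Nfe2l3 at -0.22 (SE 0.15) and Nfe2l2 at -0.13 (SE 0.12), overlapped too. Uba6, the only measured gene of the ubiquitin and E1 list, stood at 0.0020 (SE 0.19).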

How the data were processed

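The authors deposited 1 table of intensity values per probe set and array for 6 arrays. Per the submitters' processing notes they were made with RMA in Partek; software versions and the build of the platform annotation were not given in the sources used here. Values ran from 1.84 to 22239 with array medians of 59.8 to 61.6, so the deposited intensity is linear, and log2 was taken without a pseudocount. Arrays scaled to like distributions hide a shift common to most genes. Probe sets with 1 platform symbol (318760) were named; older symbols were updated through RefSeq (GRCm38.p6), none of them onto a member. Genes were fitted with limma 3.58.1 in R 4.3.3 (lmFit, eBayes, no covariate; Benjamini-Hochberg over 20059 genes), the kept probe sets likewise, and the fit was tested on simulated data. The members and lists were chosen with earlier results of these data known. Every member is named; values on all arrays are given for the 3 most negative and most positive genes of each particle (regulatory: the 1 positive), the catalytic genes, Psmd4, Psmd14 and genes without overlap, and further examples were chosen after their values were seen. For the pathway lists, the 2 genes with the smallest p of each list are named, with Nfe2l1 added after its values were seen. Alternatives were other filters, a median of probe sets, other scalings, array weights, a variance trend, a replicate block and leaving arrays out. Precision is limited by the number of arrays.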

Additional observations from a re-analysis of the deposited data

How the results depend on the processing

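No member passed the adjusted test under any of the 15 alternative fits (limma, smallest adjusted p from 0.324 to 0.903). The differences of Psma5, Psma8, Psmc6, Psmd5, Psmd9 and Psmd11 kept their sign in each. Of these, only Psmd5 has genotypes that overlap, so in the others leaving arrays out could not turn the sign. The replicate block and the variance trend change p and not the difference. With arrays left out 1 at a time, 22 members took both signs, with log2 differences of Psma1 -0.31 to 0.088, Psma2 -0.34 to 0.031, Psma4 -0.32 to 0.046, Psma7 -0.24 to 0.15, Psmb1 -0.088 to 0.17, Psmb2 -0.0015 to 0.16, Psmb4 -0.26 to 0.015, Psmb7 -0.27 to 0.12, Psmc1 -0.29 to 0.016, Psmc2 -0.29 to 0.087, Psmc3 -0.33 to 0.072, Psmc4 -0.34 to 0.11, Psmc5 -0.27 to 0.071, Psmd1 -0.42 to 0.088, Psmd2 -0.37 to 0.098, Psmd3 -0.13 to 0.10, Psmd4 -0.28 to 0.036, Psmd8 -0.026 to 0.073, Psmd10 -0.42 to 0.18, Psmd12 -0.30 to 0.10, Psmd13 -0.18 to 0.12 and Psmd14 -0.29 to 0.042; among pathway genes so did Psme3 -0.27 to 0.10, Txnl1 -0.42 to 0.00026 and Uba6 -0.16 to 0.12. Over the same fits 12 to 32 members were lower, the core median ran from -0.24 to 0.088 and the regulatory median from -0.29 to 0.045. All genes at an unadjusted p under 0.05 numbered 925 to 1928, against 1502. Member probe sets at that p numbered 1 to 15 lower and 0 to 5 higher. Psmb8 minus Psmb5 ran from -0.023 to 0.12 and Psmb10 minus Psmb7 from -0.13 to 0.30. Cyclic loess gave 19 members lower, a core median of 0.013, and turned Psma1 0.013, Psma7 0.020, Psmb7 0.047, Psmc1 0.0019, Psmc2 0.070, Psmc3 0.0044, Psmc5 0.0093, Psmd3 0.082, Psmd13 0.098, Psmd14 0.0028. Array weights gave 2593 genes at that p and turned Psma7 0.031, Psmb1 -0.014, Psmc5 0.0036, Psmd3 0.079, Psmd8 -0.0034, Psmd13 0.0034, Uba6 -0.12. The median of probe sets turned Psma1 0.082, Psmb1 -0.14, Psmc2 0.23, Psmd3 0.061 and Psmb8 minus Psmb5 (-0.070). The filter at percentile 75 turned Psmb1 -0.017, Uba6 -0.0015, no filter Psmd3 0.014, Uba6 -0.021, and a second quantile normalization Psmd13 0.0026. Leaving out wild-type replicate 1 and Dnmt3a+/- replicate 2 together, chosen after seeing the data, turned Psma1 0.079, Psma7 0.087, Psmd3 0.023, Psmd4 0.054, Psmb8 0.0056, Ube3c 0.014, Uba6 -0.071. The cause of these changes was not tested. Deviations from the genotype mean correlated at -0.05, -0.09 and 0.11 between same-numbered arrays, and at -0.17 to 0.17 between the others. Such deviations sum to 0 over 3 arrays, so they cannot decide whether the replicate numbers pair the samples. Each replicate number holds 1 array per genotype, so the replicate block cannot change a difference. The core median of -0.12 and the regulatory median of -0.14 thus stayed by design, and only p moved. With the block 1274 genes reached that p, and member probe sets at it numbered 8 lower and 5 higher, against 6 and 3. A p that misses the threshold does not show equal levels.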
